A study of Mus musculus with 4 samples.

Results

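Cym, the gene for chymosin (ENSMUSG00000046213), was followed through every cell class of the neonatal mouse jejunum and ileum. It was found by its symbol in the feature list of each library and is 1 of 32227 genes listed there. Epithelium of the medial jejunum and of the ileum was taken from 2 wild-type mice at postnatal day 6 (P6), and single cells were captured with PIP-Seq V T20 kits, which partition cells by templated emulsification and count RNA molecules by unique molecular identifiers (UMIs). This gave 4 libraries, 2 per region, and both regions came from the same animal. The animal behind both first replicates, here mouse 1, is labelled male and batch 1, and mouse 2 is labelled female and batch 2, so mouse, labelled sex and batch cannot be told apart. No treatment, transgene or mutation was involved in any group. Cym was chosen by its measured level in jejunal crypt cells of these same libraries, so its levels by region and class are a description and carry no test. Tests between regions are given for other genes alone.

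Chymosin is an aspartic protease of the stomach of suckling mammals. It is secreted as an inactive precursor, is activated by acid and clots milk by cutting casein, which slows the passage of milk protein out of the stomach. The intestinal crypt is the compartment at the base of the villi where stem cells, marked by Lgr5 and Olfm4, and their dividing daughters renew the epithelium. Their offspring move up the villus and mature into enterocytes, which carry brush-border peptidases and take up milk nutrients. Proximal and distal parts of the small intestine differ in transcription factors such as Gata4, a factor of the proximal intestine.

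After filtering, 30522 of 36202 called cells remained, and each class was named from RNA markers. A crypt class held 2 clusters, 1 led by cycling genes (Olfm4, Ccna2, Mki67 and Top2a among its leading genes) and 1 led by stem markers (Olfm4, Lgr5, Kcnq1, Slc12a2, Cdca7 and Smoc2). It had 431 and 394 cells in the jejunum of mouse 1 and mouse 2 and 409 and 399 in the ileum. The enterocyte-like class held 16 of the 24 clusters and 77.2% to 81.4% of the kept cells of each library. Cym itself was left out of the genes used for clustering. Libraries had 57951874 to 131400239 UMIs in all, with medians of 4690 and 5884 UMIs per kept cell in the jejunum and 12047.5 and 10916 in the ileum. Mitochondrial UMIs made up a median of 6.37% and 9.94% per jejunal cell and of 3.61% and 3.74% per ileal cell, so depth and mitochondrial share went with region, and their part in differences between regions was tried only at an equal depth of 2000 UMIs per cell and at a mitochondrial limit of 10%. Both libraries labelled male had Xist at 467 and 537 CPM (UMIs scaled to a common total) and Eif2s3y at 0.0228 and 0.109 CPM, while both labelled female had Xist at 0.712 and 0.984 CPM and Eif2s3y at 66.4 and 89.1 CPM. Kdm5d was at 0.885 and 0.510 CPM in the libraries labelled male and at 12.4 and 17.4 CPM in those labelled female, jejunum first. These 3 genes go against the labelled sex in all 4 libraries. Of the other Y-linked genes, Ddx3y was at 84.0 and 112 CPM and Uty at 142 and 1.07 CPM in the libraries labelled male, against 190 and 236 CPM and 74.4 and 123 CPM in those labelled female, so Ddx3y was present in both mice and the values of Uty overlapped. The animals are called by number alone. No cell barcode was shared between libraries among the kept cells.

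The Cym gene has 1 annotated transcript with 9 exons in GENCODE vM21. The 250 bases just before its start site are shown because regulators that differ between the regions are described further on, and short core motifs that such factors are known to bind can be looked up in them. The sequence is from RefSeq, build GRCm38.p6, chr3:107221733-107221982 on the minus strand, written 5′ to 3′ with motif matches in capitals. The counts were made on another build, GRCm39.
Cym upstream: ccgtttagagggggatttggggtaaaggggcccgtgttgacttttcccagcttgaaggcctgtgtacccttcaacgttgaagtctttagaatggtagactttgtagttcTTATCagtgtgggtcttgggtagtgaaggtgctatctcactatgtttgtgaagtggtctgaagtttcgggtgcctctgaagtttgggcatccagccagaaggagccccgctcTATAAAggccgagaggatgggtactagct
Both strands were searched for 4 motifs that do not overlap each other there. TATAAA, the TATA box, began 29 bases before the start site on the gene's own strand and is present in 12.4% of 32851 windows of the same length upstream of annotated genes. GATAA, the core bound by GATA factors, had 1 match on the opposite strand, printed as TTATC, 141 bases before the start site, and 22.6% of windows hold it. ATTGAT, a core bound by ONECUT factors, and TTTATG, a core bound by CDX factors, had no match in this window, and 6.72% and 10.8% of windows hold them. A match of this length is a description of the letters alone.

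Cym was detected mostly in the jejunum, and there it was highest in the crypt class. In crypt-class cells it stood at 205 CPM in the jejunum of mouse 1 (573 UMIs, exact Poisson 95% interval 188 to 222) and at 459 CPM in that of mouse 2 (1444 UMIs, 436 to 484). In the ileum the same class gave 2.14 CPM (6 UMIs, 0.787 to 4.67) and 2.92 CPM (7 UMIs, 1.17 to 6.01). The region means were 332 ± 180 CPM in the jejunum and 2.53 ± 0.545 CPM in the ileum (SD, n = 2 mice each), and the lower jejunal library lay 95.4-fold above the ileum of the same mouse, the higher one 158-fold. The intervals cover counting error only. The jejunal and ileal libraries did not overlap, which is a description, since Cym was chosen for its jejunal level. As a ratio, the 2.24-fold difference between the 2 jejunal libraries was small beside that between regions. In CPM it was large, as the SD of 180 around the mean of 332 shows.

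In enterocyte-like cells the Cym level was lower than in the crypt class in every library. It was 10.2 CPM in the jejunum of mouse 1 (503 UMIs in 7327 cells, 9.29 to 11.1) and 64.9 CPM in that of mouse 2 (2406 UMIs in 4421 cells, 62.3 to 67.5). The ileal enterocyte-like cells had 0.159 CPM (12 UMIs in 5895 cells) and 0.277 CPM (23 UMIs in 6734 cells). The crypt class thus exceeded the enterocyte-like class of the same library 20.2-fold and 7.08-fold in the jejunum and 13.5-fold and 10.5-fold in the ileum, the last 2 resting on 6 and 7 crypt UMIs. The Cym UMIs were divided between the classes as follows. Crypt-class cells were 4.79% and 6.88% of the kept jejunal cells of mouse 1 and mouse 2 and carried 50.6% and 34.5% of the Cym UMIs of those cells. Droplets of enterocyte-like cells carried 44.4% and 57.4%, and how much of this is free RNA was not tested.

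**Figure D1:**
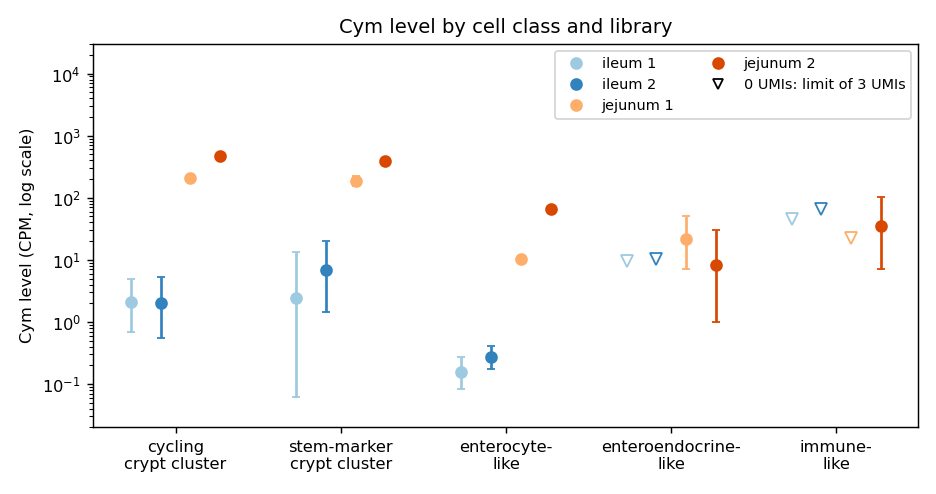
Cym level (CPM, log scale) for each cell class, with 1 point per library and bars for the exact Poisson 95% interval; open triangles mark classes with 0 Cym UMIs at the level that 3 UMIs would give. In the cycling and stem-marker crypt clusters the jejunal points sit between 185 and 478 CPM and the ileal points between 2.03 and 6.96 CPM, and enterocyte-like points are lower in each library.

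Within the crypt class, the cycling and the stem-marker cluster had similar Cym levels. The cycling cluster had 211 CPM (453 UMIs, 282 cells) and 478 CPM (1202 UMIs, 266 cells) in the jejunum of mouse 1 and mouse 2, and the stem-marker cluster 185 CPM (120 UMIs, 149 cells, 153 to 221) and 384 CPM (242 UMIs, 128 cells, 337 to 436). The cycling cluster was 1.14-fold and 1.24-fold higher. Its Poisson interval overlapped that of the stem-marker cluster in mouse 1 (192 to 231) and lay above it in mouse 2 (452 to 506). With jejunal classes drawn by marker UMIs in place of clusters, the difference was larger and the intervals did not overlap in either mouse. Cycling cells then had 208 CPM (190 to 227) and 459 CPM (434 to 486). Stem-marker cells, with under 5 cycling UMIs, had 147 CPM (119 to 179) and 317 CPM (273 to 365). In the ileum the cycling cluster had 5 and 4 UMIs (2.10 and 2.03 CPM) and the stem-marker cluster 1 and 3 UMIs (2.43 and 6.96 CPM), too few to set the clusters in order. With the mean over both jejunal libraries, the order of the jejunal classes was the cycling cluster (344 ± 189 CPM), the stem-marker cluster (285 ± 141), enterocyte-like cells (37.5 ± 38.7), cells of unnamed clusters (33.3 ± 35.0), immune-like cells (17.3 ± 24.5) and enteroendocrine-like cells (14.97 ± 9.52; SD, n = 2 each). These SDs are between mice and do not measure the difference between classes of the same library. Within each mouse the cycling cluster was the higher of the 2 crypt clusters. The order of the last 4 classes was not the same in both mice. Enterocyte-like cells lay below enteroendocrine-like cells in mouse 1 (10.2 against 21.7 CPM) and above them in mouse 2 (64.9 against 8.24 CPM).

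Rarer classes held few Cym UMIs. Enteroendocrine-like cells, which make gut hormones, had 5 UMIs in 68 cells in the jejunum of mouse 1 (21.7 CPM, 7.05 to 50.6) and 2 UMIs in 46 cells in mouse 2 (8.24 CPM, 0.997 to 29.8). Immune-like cells had 0 UMIs in 19 cells, where 3 UMIs would be 22.8 CPM, and 3 UMIs in 14 cells (34.6 CPM, 7.14 to 101). No Cym UMI was seen in the 9 and 5 goblet-like cells of the jejunum, a number too small to set a useful limit. The ileal cells of these classes had no Cym UMI either.

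The share of cells with a Cym UMI was compared after every cell had been thinned to 2000 UMIs. In the crypt class 22.4% of 407 cells of the jejunum of mouse 1 (exact 95% interval 18.4 to 26.7) and 41.1% of 372 cells of mouse 2 (36.1 to 46.3) then had one, against 2 of 406 and 2 of 371 cells in the ileum (0.493% and 0.539%). Thinning left out 24, 22, 3 and 28 shallower crypt-class cells in that order of libraries. At full depth the jejunal shares were 34.8% and 61.9%. The cycling and the stem-marker cluster had nearly the same thinned share within each mouse, 21.9% and 23.3% in mouse 1 and 42.0% and 39.1% in mouse 2.

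Free RNA in the droplets can put a UMI into a cell that does not express the gene. Enteroendocrine-like and immune-like cells were taken as a rough guide to that background, and whether they express Cym themselves was not tested. In the jejunum of mouse 1, 2 of 59 thinned enteroendocrine-like cells had a Cym UMI (3.39%, exact 95% interval 0.413 to 11.7; median 3189.5 UMIs per cell before thinning) and 0 of 18 immune-like cells, which allows a share of up to 16.7%. In mouse 2 it was 0 of 45 enteroendocrine-like cells (median 5328 UMIs), which allows up to 6.67%, and 1 of 12 immune-like cells. The crypt shares, from cells with medians of 4920 and 6616.5 UMIs, were above the enteroendocrine-like values and their intervals. They were above the immune-like values too. The exact immune-like intervals (0 to 18.5 in mouse 1 and 0.211 to 38.5 in mouse 2) overlapped the crypt intervals, which began at 18.4 and 36.1. The enterocyte-like share was 1.71% in mouse 1 (1.41 to 2.05, median 4685 UMIs), below the enteroendocrine-like value and inside its interval. It was 8.41% in mouse 2 (7.59 to 9.28, median 5658 UMIs), beside 8.33% in the immune-like cells of that library (0.211 to 38.5) and 10.4% in the cells of unnamed clusters. Its interval there overlapped that of the enteroendocrine-like cells (0 to 7.87). The enteroendocrine-like value of mouse 1 rests on few cells, and at full depth 1 cell held 4 of the 5 Cym UMIs of that class. The part of free RNA in the enterocyte-like share was not tested.

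Cym was spread unevenly over the crypt-class cells. In the jejunum of mouse 1, 281 of 431 cells had no Cym UMI, 59 had 1, 54 had 2 to 4 and 37 had 5 or more, up to 41 in a single cell. In mouse 2, 150 of 394 cells had none, 69 had 1, 82 had 2 to 4 and 93 had 5 or more, up to 43. The tenth of the crypt cells with the most Cym UMIs held 69.5% and 53.1% of the class's Cym UMIs. Cells with a Cym UMI were also deeper, with medians of 7898.5 and 9092 UMIs against 4193 and 3934.5 in cells without one, so these counts are in part a matter of depth. At full depth no ileal crypt cell had more than 2 Cym UMIs.

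At equal depth, cells with a Cym UMI had more stem-marker RNA, about the same cycling RNA and less enterocyte RNA than the other crypt-class cells. Of 2000 UMIs, the 91 crypt cells with Cym in mouse 1 had on average 13.3 from the 15 stem-marker genes against 9.36 in the 316 cells without it, and the 153 cells with Cym in mouse 2 had 12.8 against 7.98 in 219 cells. Their UMIs from the 20 cycling genes averaged 7.56 against 7.28 and 7.37 against 7.09. Their UMIs from the 12 enterocyte genes averaged 11.2 against 14.5 and 12.7 against 17.0. These are descriptions over cells of 1 library each, and cells are not replicates.

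Marker UMIs counted in each cell, without clusters, also placed the high Cym levels in cells with many crypt markers. Among jejunal cells with no stem-marker or cycling UMI in 2000, the Cym level at that depth was 6.61 CPM in mouse 1 and 52.1 CPM in mouse 2. It was 18.3 CPM (4 UMIs, 5.00 to 47.0) and 118 CPM at 8 to 12 such UMIs and 153 and 362 CPM at 13 to 20. At 21 or more it was 362 CPM (294 to 442) and 818 CPM (706 to 942). The high levels were in the bins in which the median enterocyte-marker count per cell had fallen, from 91 and 92 UMIs in the first bin to 7 and 8 in the last. In the ileum no bin held more than 2 thinned Cym UMIs.

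**Figure D2:**
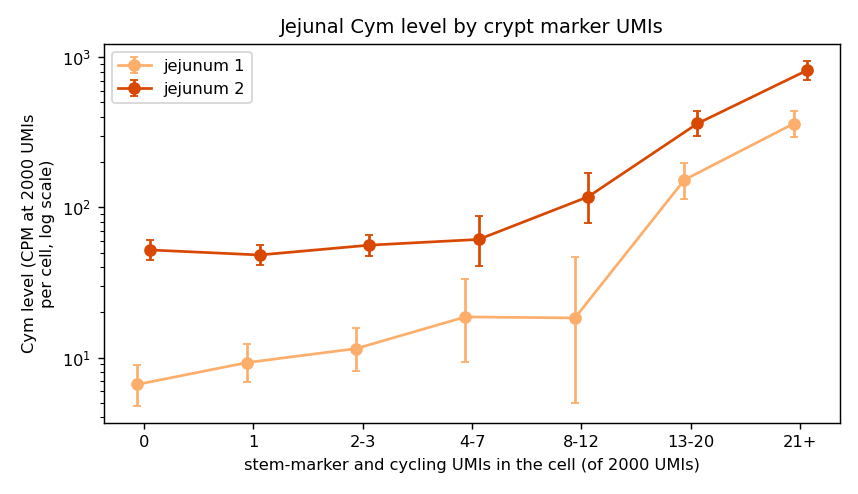
Jejunal Cym level (CPM at 2000 UMIs per cell, log scale) against the number of stem-marker and cycling UMIs in the cell, with 1 line per jejunal library and exact Poisson 95% intervals. Both lines stay low up to 7 marker UMIs and end at 362 and 818 CPM in cells with 21 or more, and the line of mouse 2 lies above that of mouse 1 in every bin.

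The crypt-class cells were also split by both kinds of marker. Crypt cells with 10 or more stem-marker UMIs had 254, 319 and 313 CPM of Cym in mouse 1 when they held under 5, 5 to 9 and 10 or more cycling UMIs, and 540, 761 and 755.6 CPM in mouse 2. With fewer than 5 stem-marker UMIs, the same steps of cycling UMIs gave 68.2, 38.5 and 92.6 CPM in mouse 1, from 3, 2 and 5 thinned UMIs, and 173, 128 and 130 CPM in mouse 2, from 9, 11 and 7. With 5 to 9 stem-marker UMIs the steps gave 62.5, 170 and 105 CPM in mouse 1 and 103 (38.0 to 225), 200.0 and 520.0 CPM (340 to 762) in mouse 2, so in this row of mouse 2 the level was higher with more cycling UMIs. The highest stem-marker count had the highest level at each step of cycling UMIs in both mice, and there the intervals of the cycling steps overlapped. Between the lower stem-marker counts the order was not the same at each step.

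**Figure D3:**
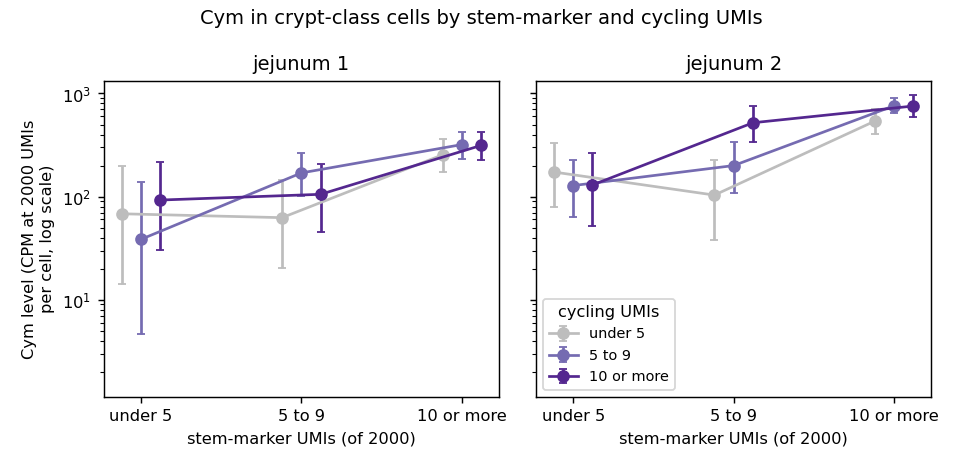
Cym level (CPM at 2000 UMIs per cell, log scale) in jejunal crypt-class cells by stem-marker UMIs, with 1 line for each step of cycling UMIs, 1 panel per jejunal library and exact Poisson 95% intervals. Cells with 10 or more stem-marker UMIs have 254 to 319 CPM in mouse 1 and 540 to 761 CPM in mouse 2 at every step of cycling UMIs.

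Enterocyte-like clusters differed widely in Cym. Over the 13 of 16 clusters with at least 100 cells in both jejunal libraries, the level ran from 2.22 to 37.9 CPM in mouse 1 (median 7.62) and from 10.2 to 228 CPM in mouse 2 (median 39.6). The highest in both was cluster 16, led by Krt19, Ms4a18, Cldn15 and Defb37, with 37.9 CPM (29.8 to 47.4) and 228 CPM (204 to 254). Next was cluster 5, led by Fabp6, Bcl2l15, Mt2 and Scd2, with 25.01 CPM (21.2 to 29.2) and 176 CPM (164 to 189). The lowest in both was cluster 13, led by Serpina1a and the fatty acid transporter Cd36, with 2.22 CPM from 4 UMIs (0.604 to 5.67) and 10.2 CPM from 22 UMIs (6.39 to 15.4). After thinning, cluster 16 was again the highest in both mice, while the lowest shares were 0.300% in cluster 10 in mouse 1 and 1.06% in cluster 9 in mouse 2. In cluster 16, 8.39% of 155 cells (4.54 to 13.9) and 31.7% of 101 cells (22.8 to 41.7) had a Cym UMI after thinning, and in cluster 13 it was 0.662% of 453 cells (0.137 to 1.92) and 2.15% of 418 cells (0.989 to 4.05). These clusters were picked as the ends of the order by Cym itself, so their values are a description.

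The jejunum of mouse 2 had more Cym than that of mouse 1 in every one of these clusters, and more so in enterocyte-like cells than in the crypt. Mouse 2 exceeded mouse 1 by 2.24-fold in the crypt class and by 6.39-fold in the enterocyte-like class. Over the 13 enterocyte-like clusters the ratio ran from 3.08 to 8.59 with a median of 5.65, and mouse 2 was higher in 13 of 13. The crypt class exceeded cluster 16 by 5.40-fold in mouse 1 and by 2.01-fold in mouse 2. The higher mouse also had the higher mitochondrial share and the higher median depth, whose part in this difference was not tested, and mouse, batch and labelled sex cannot be told apart with 1 jejunal library each.

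**Figure D4:**
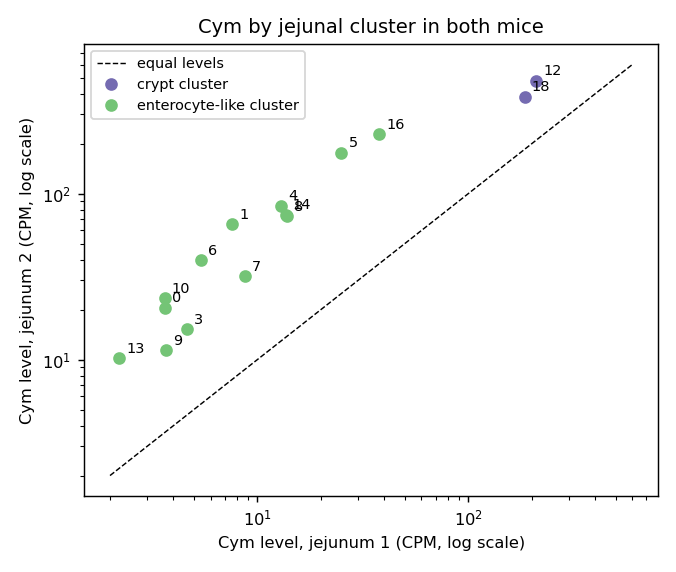
Cym level (CPM, log scales) of each jejunal cluster with at least 100 cells in both libraries, mouse 1 on the horizontal and mouse 2 on the vertical axis, with cluster numbers and a dashed line of equal levels. All clusters lie above the line; both crypt clusters (12 and 18) stand at the upper right, followed by enterocyte-like clusters 16 and 5, and cluster 13 is lowest.

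The share of the crypt level that remained in enterocyte-like cells was set beside that of the crypt markers. The enterocyte-like level was 4.96% of the crypt level for Cym in mouse 1 and 14.1% in mouse 2. For the 15 stem-marker genes the median was 5.33% and 4.46%, and 7 and 11 of them had a lower share than Cym. For the 20 cycling genes it was 2.18% and 2.52%, with 14 and 18 lower than Cym. In mouse 1 Cym therefore lay in the middle of the stem markers by rank, and in mouse 2 a larger part of its level was seen in enterocyte-like cells than for most of them. The 15 ran widely, from 0.404% to 38.9% in mouse 1 and from 0.363% to 83.4% in mouse 2. Smoc2, Olfm4 and Lgr5, described next as going with Cym from cell to cell, were below Cym. They were at 0.933%, 0.777% and 1.00% in mouse 1 and at 1.15%, 0.767% and 1.01% in mouse 2.

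Genes that went with Cym from cell to cell were sought among the jejunal crypt-class cells, all thinned to 2000 UMIs, by Pearson's r of log values over 407 cells of mouse 1 and 372 of mouse 2, with the lower of the 2 values as the measure. Cells of a library share its depth and free RNA, and thinned UMIs are sparse, so these values are small and are descriptions. Of 3677 genes seen in at least 10% of the cells in both libraries, those most like Cym were Smoc2 (r = 0.223 and 0.229), Olfm4 (0.222 and 0.373), Rplp0, Rpl3, Rps15a, Lgr5 (0.214 and 0.239), Rpl5, Rps21, Rplp2 and Rpl9 (0.158 and 0.234). Smoc2 encodes a matrix protein, Olfm4 a secreted glycoprotein and Lgr5 a receptor for R-spondins, and all 3 mark intestinal stem cells. The other 7 encode proteins of the ribosome, many of which have near-identical pseudogenes. The median lower r of all 3677 genes was -0.03 and the 99th percentile was 0.115. Across these genes the r values of the 2 mice correlated at only 0.331 within the crypt class, against 0.915 over all thinned jejunal cells. At the other end were Apoa4 (r = -0.16 and -0.18), an apolipoprotein of chylomicrons, then Abcc2, St3gal4, Hsd17b11 and Hmgn5.

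Marker lists showed the same separation within the crypt class. Of 15 stem-marker genes, 12 were seen often enough to compare, and 11 of them had a positive r in both mice, Prom1 being negative in both (median lower r 0.0896). Of 15 cycling genes compared, 5 were positive in both and 1, Cdk1, was negative in both (median -0.00474). Of 9 enterocyte genes compared, 8 were negative in both (median -0.11). Over all 8233 and 5470 thinned jejunal cells, the 10 genes most like Cym were Olfm4 (0.325 and 0.363), Lgr5, Smoc2, Slc12a2, Tubb5, Kcnq1, Cdca7, Nap1l1, Rpl3 and Rps15a, 5 of which were also among the 10 within the crypt. Over all cells the 15 cycling genes were positive in both mice as well.

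**Figure D5:**
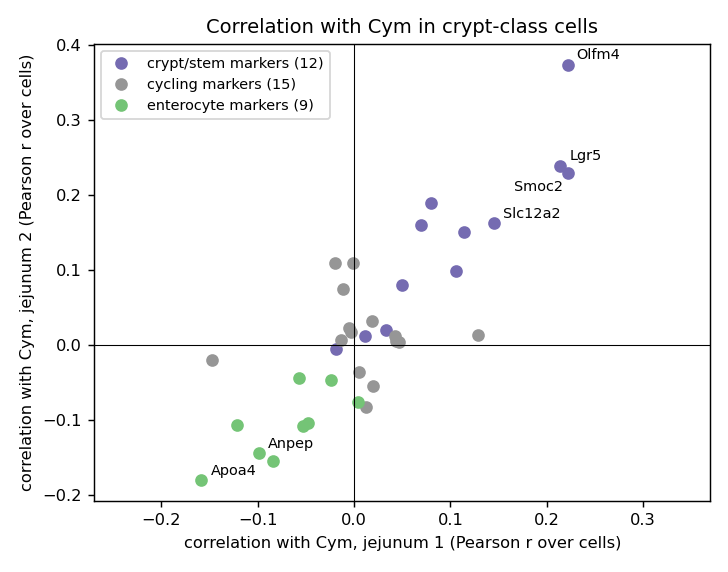
Pearson's r of each marker gene with Cym over thinned jejunal crypt-class cells, mouse 1 on the horizontal and mouse 2 on the vertical axis, for 12 stem-marker, 15 cycling and 9 enterocyte genes. Smoc2, Lgr5 and Olfm4 lie at the upper right (0.214 to 0.373), cycling genes lie around 0, and Apoa4 is at the lower left.

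Chymosin belongs to a family of aspartic proteases, and its other members were tested between regions. The list held 8 more genes, of which 3 passed the filter on low counts in the crypt class and 6 in the enterocyte-like class, and each was compared between jejunum and ileum by the quasi-likelihood test of edgeR on UMIs summed per library and class, with adjustment over all genes. Of 12415 genes tested in the crypt class, 3.11% were called at an adjusted p under 0.05 (1.18% higher in the jejunum and 1.93% in the ileum). With the mouse as a block, the number called rose from 386 to 1314. In enterocyte-like cells 6.85% of 19498 genes were called (2.91% and 3.93%), and the number rose from 1335 to 3351 with the block. Ctsd, which encodes the lysosomal protease cathepsin D, was at 128 and 149 CPM in the jejunal crypt class and 263 and 265 CPM in the ileal one. Its groups did not overlap, and it fell by 0.88 ± 0.14 log2 units (SE) in the jejunum (edgeR adjusted p = 0.00549), a call that classes drawn by marker UMIs did not give (adjusted p = 0.0702). In enterocyte-like cells Ctsd was at 577 and 551 CPM against 819 and 883, a log2 difference of -0.48 with an adjusted p of 0.0970, or 0.0477 with the block.

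Pga5, a pepsinogen and so another stomach protease, was the single aspartic protease called higher in the jejunum. It was at 2.99 and 3.94 CPM in jejunal enterocyte-like cells (148 and 146 UMIs) against 0.145 and 0.205 CPM in ileal ones (11 and 17 UMIs), a log2 difference of 4.39 ± 0.36 (SE; edgeR adjusted p = 0.0126). Pga5 had 2 UMIs in the crypt class of each jejunal library, at 0.714 and 0.636 CPM. Bace1, a membrane protease, was lower in jejunal than ileal enterocyte-like cells (11.5 and 11.2 against 34.1 and 32.8 CPM, log2 difference -1.44, adjusted p = 0.0153). The list had 0 higher and 1 lower of 3 tested in the crypt class and 1 higher and 1 lower of 6 in enterocyte-like cells, with median log2 differences of -0.54 and 0.04 against 0.00204 and 0.00635 over all genes tested. Pgc, Ctse, Ren1 and Napsa were at most at 2.86 CPM in any library and class. No gene of the list other than Ctsd was above 50 CPM.

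Brush-border peptidases cut milk peptides at the enterocyte surface, and Slc15a1 carries small peptides into the cell. In the crypt class 1 of 11 tested was called higher and 4 lower in the jejunum (median log2 difference -0.12). Anpep, aminopeptidase N, was at 366 and 458 CPM in the jejunum against 197 and 255 CPM in the ileum (log2 difference 0.92, adjusted p = 0.0164), a call lost without the ileum of mouse 1 (0.118). Mep1a, the meprin alpha subunit, was at 103 and 86.9 CPM against 243 and 228 CPM (-1.26, adjusted p = 0.000972). Enpep and Mep1b were also lower in the jejunal crypt, with log2 differences of -1.49 and -0.87. The call of Mep1b was lost without either ileal library (adjusted p = 0.101 and 0.0820), with classes drawn by marker UMIs (0.0964) and in DESeq2 (0.155). Dpp4 and Ace, both above 50 CPM, were not called.

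In enterocyte-like cells 3 of the 12 peptidase-list genes were higher and 2 lower in the jejunum (median log2 difference 0.05). Ace was at 1008 and 940 CPM against 493 and 481 CPM (1.11, adjusted p = 0.0192), and Slc15a1 and Ggt1 were higher by 1.32 and 1.33. Mep1a was at 483 and 467 CPM against 858 and 817 CPM (-0.71, adjusted p = 0.0370), and Naaladl1 was lower by 2.15 log2 units (adjusted p = 0.0271). Mep1a was the only one of the 12 called in both classes, lower in the jejunum each time. With the mouse as a block Anpep (adjusted p = 0.0155) and Enpep (0.0380) were called too, and the calls over the 3 lists together rose from 9 to 14. Without the ileum of mouse 1 there were 2 such calls, those of Pga5 and Bace1, and without the jejunum of mouse 2 there were 5. Among the peptidases, Ace (adjusted p = 0.0658), Slc15a1 (0.0784), Naaladl1 (0.0784) and Ggt1 (0.0987) were not called without the ileum of mouse 1, Slc15a1 (0.0592) and Ggt1 (0.0639) not without the jejunum of mouse 2, Ggt1 not without the ileum of mouse 2 (0.0663), and Mep1a not with any library left out (0.0890 to 0.142).

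Among the regional regulators, 2 of 7 tested were called higher and 1 lower in the jejunal crypt class (median log2 difference -0.16). Of all genes tested there, 1.18% were called higher and 1.93% lower. In jejunal enterocyte-like cells 2 of 8 were higher and 0 lower (median 0.33), beside 2.91% and 3.93% of all genes. Onecut2, a homeodomain factor, had 94.7 and 248 CPM in the jejunal crypt class against 5.72 and 4.17 CPM in the ileal one, a log2 difference of 5.15 ± 0.47 (SE; edgeR adjusted p = 0.000254). In enterocyte-like cells it had 14.98 and 73.8 CPM against 1.04 and 0.952 CPM (5.61 ± 0.85, adjusted p = 0.0262), a call lost without either ileal library (adjusted p = 0.109 and 0.0991). Like Cym, Onecut2 was higher in the crypt than in enterocyte-like cells of each jejunal library and higher in mouse 2, by 2.61-fold in the crypt class and 4.93-fold in enterocyte-like cells. The levels of both genes in these samples are given side by side, and with 4 libraries no correlation was computed.

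Gata4 was at 164 and 179 CPM in the jejunal crypt class against 30.4 and 51.2 CPM in the ileal one (log2 difference 2.13 ± 0.22, adjusted p = 0.000469), and at 106 and 102 CPM against 31.4 and 49.1 CPM in enterocyte-like cells (1.47 ± 0.25, adjusted p = 0.0335). The second call was lost without the ileum of mouse 1 (0.0684) or the jejunum of mouse 2 (0.0663). Unlike Cym and Onecut2, its jejunal levels were alike in both mice, with mouse 2 at 1.09 and 0.960 times mouse 1 in the crypt and enterocyte-like classes. Gata6, Cdx1 and Cdx2, at 157 CPM or more in each library and class, were not called in either class.

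From cell to cell, no regulator followed Cym closely. Within jejunal crypt-class cells, r with Cym was 0.114 and 0.0644 for Onecut2, seen in 15.5% and 39.0% of the thinned cells, -0.12 and -0.03 for Gata4 and 0.0485 and 0.119 for Cdx2. All are below the values of Olfm4 and Lgr5. Between groups of cells the levels of Onecut2 and Cym were alike in part. Among enterocyte-like clusters with at least 100 cells in both jejunal libraries, cluster 16 was highest for Cym and for Onecut2 in both mice. Its Onecut2 level was 42.4 CPM in mouse 1 and 183 CPM in mouse 2. The enteroendocrine-like cells had 104 and 214 CPM of Onecut2 in the jejunum of mouse 1 and mouse 2, beside 21.7 and 8.24 CPM of Cym. A part of Onecut2 in the Cym level was not tested.

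The 3 annotated genes on either side of Cym were measured in the same sums. Lamtor5, a subunit of the complex that anchors nutrient sensing at the lysosome, was at 47.1 to 71.9 CPM in the 4 crypt classes and was not called between regions (log2 difference -0.26, adjusted p = 0.553; -0.13 and 0.546 in enterocyte-like cells). The neighbour on the same side of Cym and next to it, A630076J17Rik, was called in enterocyte-like cells at very low levels, 0.424 and 0.809 CPM in the jejunum against 0.0528 and 0.0723 CPM in the ileum (log2 difference 3.34, edgeR adjusted p = 0.0279). In the crypt class it was at 1.91 CPM in the jejunum of mouse 2 and at 0 CPM in the jejunum of mouse 1 and in both ileal libraries, and it was not tested there. Kcna2, Kcna10 and Prok1 were at most at 0.833 CPM, and Gm38712 was not in the feature lists.

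Because chymosin is a product of the stomach, markers of gastric epithelium were measured in the same sums. Of 16 gastric genes, 7 had no UMI in the crypt class of any library, namely Gkn1, Gkn2, Tff1, Muc5ac, Atp4b, Psca and Sox2. The summed level of the 16 was 14.3 and 20.7 CPM in the jejunal crypt class and 6.43 and 7.91 CPM in the ileal one, and Gkn3 alone made up 9.29 and 14.95 CPM in the jejunum. In enterocyte-like cells the sums were 4.66 and 5.91 CPM in the jejunum and 3.29 and 2.51 CPM in the ileum. Each was far below Cym in the jejunal crypt class. The sum of 11 pancreatic acinar genes was 12.9 to 17.1 CPM in the crypt classes, and in enterocyte-like cells it was 75.0 and 77.8 CPM in the jejunum against 16.0 and 29.1 CPM in the ileum, nearly all of it from Ctrb1 and Cela1, which were at 35.0 to 39.1 CPM each in the jejunum. The part of these cells' RNA in the Cym values was not tested.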

How the data were processed

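The authors released epithelium with EDTA and dispase, captured cells with PIP-Seq V T20 kits and counted reads with PIPseeker at level 3; the deposited matrices hold whole UMI counts per gene and called cell. The build is GRCm39 per the labels, and the annotation is not given in the sources used here. All columns of values were those of the 4 libraries. Following the study's limits, genes had to occur in 3 or more cells, and a cell was kept with more than 1000 but fewer than 6000 genes and less than 20% mitochondrial UMIs. Seurat 5.3.0 (R 4.3.3) normalized the counts, integrated the libraries by canonical correlation analysis over 2000 variable genes without Cym, and clustered 30 components at resolution 1 into 24 clusters. To be named for a class other than enterocyte, a cluster needed 3 of that class's markers present in 10% of its cells. Their log2 level had to be more than 1 above the remaining cells (5 CPM added). In addition 1 or more had to be among its 10 leading genes, with no other class having more there. An enterocyte-like cluster needed 3 markers in 50% of its cells and a mean log2 level above -1. It also could not reach the 3 markers of another class, nor have more leading genes from another class than from the enterocyte markers. These thresholds, and those of the marker-UMI classes (at least 5 cycling or 5 stem-marker UMIs in 2000 for crypt cells; at most 3 of both together and at least 15 enterocyte UMIs for enterocytes), were chosen once the data were known. Between 89 and 105 cells per library had 6 to 9 such crypt UMIs, near these limits. The remaining 3 clusters stayed unnamed. Of these, clusters 2 and 11 met both enterocyte marker limits, with 11 markers in 50% of their cells and mean log2 levels of -0.056 and 0.092. They were left unnamed because of erythroid genes (Hbb-bs and Hba-a2) and the acinar gene Ctrb1 among their leading genes. Scrublet in scanpy 1.11.5 called 4 kept cells, so no doublets were removed, and leaving out the highest 6% of scores was tried.

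UMIs were summed per library and class and compared between regions with edgeR 4.0.16 (filterByExpr, TMM factors, quasi-likelihood test, region as the only term, 2 libraries each), with Benjamini-Hochberg adjustment over all genes tested and calls at an adjusted p under 0.05; a positive log2 difference means higher in the jejunum. The procedure was tested on simulated data. Per the labels, 1 animal gave both regions, and replicate numbers therefore pair the libraries by animal: the differences between mice correlated between regions at 0.251 (crypt) and 0.280 (enterocyte-like) across genes. DESeq2 1.42.0, other scalings, no filter, the replicate block and leaving out each library were tried. Single cells were thinned to 2000 UMIs without replacement. Intervals are exact Poisson (CPM) or Clopper-Pearson (shares) at 95% and cover counting error; a count of 0 allows up to 3 counts.

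Cym and the gene lists were chosen with earlier results of these data known. Named genes are list genes that were called or above 50 CPM in a region, the 10 genes most and 5 least like Cym, and its 3 neighbours on either side; gene models and mitochondrial genes were skipped in the ranking. Other list members, gastric and pancreatic genes and the motifs were singled out after their values were seen. Values of 2 list genes are not reported here, though the numbers of list genes tested and called in all include them.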

Additional observations from a re-analysis of the deposited data

Results flagged for a closer look

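Cells above the upper limit on genes per cell were outside the main measurement, and those of the jejunum held Cym. The 135 cells with 6000 or more genes in the jejunum of mouse 1 had 43.6 CPM of Cym (165 UMIs, exact Poisson 95% interval 37.2 to 50.8), and the 252 such cells of mouse 2 had 211 CPM (1571 UMIs, 201 to 222), with up to 77 Cym UMIs in a cell. The 1643 and 1121 such cells of the ileum had 0.181 and 0.234 CPM. At 2000 UMIs per cell, 5.93% and 25.4% of the jejunal cells had a Cym UMI. Of these cells, 11 and 41 met the marker-UMI limits of the crypt class, with 177 and 414 CPM of Cym.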

How the results depend on the processing

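The mean crypt level of Cym, its region ratio and its crypt over enterocyte ratio kept their direction under every alternative run. At full depth the mean share of jejunal crypt-class cells with Cym was 48.4% (31.7% at 2000 UMIs). The log2 ratio between regions ran from 6.34 to 7.50 with a library left out (7.04 with all), and that of crypt over enterocyte-like cells from 2.82 to 4.33 (3.15 with both). The median lower r of the 10 genes most like Cym was 0.237 at full depth, 0.196 over all kept jejunal cells, 0.235 with clusters from another linear-algebra kernel and 0.215 to 0.231 in single libraries (0.215 in the main analysis). That kernel was added after seeing the data, because rounding shifts cluster borders. It gave 486 and 462 jejunal crypt-class cells, a mean Cym level of 315 CPM and 9 of the same 10 genes.

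Genes called between regions were fewer or more under several settings, and the cause was not tested. In the crypt class 386 became 849 without a filter, 1314 with the replicate block, 200 with marker-UMI classes and 201 to 831 with a library left out (201 without the ileum of mouse 1, 831 without the jejunum of mouse 1), and the 9 list genes called became 5 to 10. In enterocyte-like cells 1335 became 3054 with DESeq2, 3351 with the replicate block and 159 to 1514 with a library left out (159 and 427 without the ileum of mouse 1 and mouse 2, 515 without the jejunum of mouse 2); the 9 list genes became 14 with the block and 2 to 9 with a library left out. Beyond the calls given with the results, the block added 1 list gene in the crypt class and 2 in enterocyte-like cells and removed none. Leaving out a library leaves 1 sample in a region, which is assumed to vary like the other pair. Signs turned only for uncalled genes. Cdx2 in the crypt class was at -0.030 with marker-UMI classes and -0.060 to 0.17 with a library left out. Dpp4 was at -0.22 to 0.16 in the crypt class with a library left out. In enterocyte-like cells Dpp4 was at 0.087 under a 10% mitochondrial limit and -0.37 to 0.32 with a library left out.

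The ileum gave 6 and 7 crypt UMIs of Cym, so its cycling and stem-marker clusters cannot be ranked.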
